A study of Homo sapiens with 12 samples.

Results

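The somatostatin receptor genes SSTR1, SSTR2, SSTR3, SSTR4 and SSTR5 were chosen by name as the drug targets of neuroendocrine tumors, and all 5 were found among 20136 annotated protein-coding genes. The histone mark H3K4me3, found at active promoters, was mapped by CUT&RUN, in which an antibody directs a nuclease to chromatin and the released fragments are sequenced. The cells were BON1, a human pancreatic neuroendocrine tumor line, and each condition used 500000 cells. The control cells were BON1/TGL/pQ and the other line was BON1/TGL/HA-Bcl-xL, in which Bcl-xL, a protein that blocks apoptosis, is overexpressed with an HA tag. Both lines carried TGL and were grown with puromycin, and a rabbit anti-mouse IgG served as the background in each. Peak lists of 11 libraries were used: 5 of H3K4me3, called controls 1 to 3 and HA-Bcl-xL 2 and 3 after their replicate numbers, and 3 of IgG per line. The H3K4me3 library labelled HA-Bcl-xL replicate 1 was not used here. The series title writes H3K3me3, whereas the sample labels name an H3K4me3 antibody. The labels do not say whether replicates were separate cultures, so p-values measure the spread between these libraries, which may be technical. They also do not say whether either line is 1 clone, and line and transgene cannot be told apart.

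Somatostatin receptors are G protein-coupled receptors for the peptide hormones somatostatin and cortistatin. Through inhibitory G proteins they lower cyclic AMP, open potassium channels and reduce hormone secretion, and they are shut off by receptor kinases and arrestins. SSTR2 and SSTR5 are the main receptors bound by octreotide and lanreotide, and SSTR2 is the usual target of somatostatin receptor imaging and radioligand therapy. H3K4me3 lies around the start of genes that are transcribed or poised, most often at promoters rich in CpG dinucleotides, and a peak there is not a measure of receptor RNA or protein.

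Each gene has its own chromosome. On GRCh37, SSTR1 spans chr14:38677109-38682272 on the plus strand, SSTR2 chr17:71161149-71172772 on the plus strand, SSTR3 chr22:37600277-37608517 on the minus strand, SSTR4 chr20:23015949-23019874 on the plus strand and SSTR5 chr16:1122747-1131454 on the plus strand. SSTR1 and SSTR4 have 1 annotated transcript each, and the other genes have 2. The sequences printed here run 5′ to 3′ on the plus strand of GRCh37, from 250 bases before to 29 bases after the 5′ end, and capitals mark CpG dinucleotides. SSTR1 is shown because it was the only receptor gene with H3K4me3 peaks, and SSTR2 and SSTR4 because their promoters are richer in CpG and had none. The promoters lie at chr14:38676859-38677138, chr17:71160899-71161178 and chr20:23015699-23015978. The last sequence is the part of SSTR1 intron 1 under a peak of control 2, chr14:38677532-38677627.
SSTR1 promoter: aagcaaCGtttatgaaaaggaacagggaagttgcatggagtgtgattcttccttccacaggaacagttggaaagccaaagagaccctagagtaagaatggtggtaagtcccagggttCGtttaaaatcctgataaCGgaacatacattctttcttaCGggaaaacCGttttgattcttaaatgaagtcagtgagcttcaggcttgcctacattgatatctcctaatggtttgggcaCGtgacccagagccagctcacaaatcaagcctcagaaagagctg
SSTR2 promoter: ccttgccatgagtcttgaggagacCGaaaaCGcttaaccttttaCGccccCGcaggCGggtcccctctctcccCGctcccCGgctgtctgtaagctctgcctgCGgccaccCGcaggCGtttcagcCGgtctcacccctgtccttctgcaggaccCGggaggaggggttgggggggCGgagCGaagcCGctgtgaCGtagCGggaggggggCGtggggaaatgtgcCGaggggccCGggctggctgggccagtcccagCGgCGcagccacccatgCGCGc
SSTR4 promoter: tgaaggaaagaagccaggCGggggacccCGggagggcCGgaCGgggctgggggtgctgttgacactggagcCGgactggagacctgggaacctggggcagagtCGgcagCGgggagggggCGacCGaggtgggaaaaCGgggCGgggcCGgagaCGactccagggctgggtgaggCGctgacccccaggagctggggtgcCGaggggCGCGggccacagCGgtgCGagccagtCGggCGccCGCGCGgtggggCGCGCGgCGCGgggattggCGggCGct
SSTR1 intron 1: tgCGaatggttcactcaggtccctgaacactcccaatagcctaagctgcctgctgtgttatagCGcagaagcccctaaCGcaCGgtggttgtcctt
These 280 promoter bases held 6 CpG dinucleotides at SSTR1, 24 at SSTR2 and 31 at SSTR4, and the 96 intron bases held 4. The same stretch held 11 at SSTR3 and 20 at SSTR5. For SSTR1, SSTR2, SSTR3 and SSTR4 the bases were identical to a promoter of the gene in RefSeq (GRCh38.p14 table), whereas the RefSeq entry of SSTR5 starts at another position.

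At SSTR1 an H3K4me3 peak lay within 1 kb of the annotated start in 4 of 5 libraries, and the genes of SSTR2, SSTR3, SSTR4 and SSTR5 had none in any. By line, SSTR1 was called in controls 1 and 2 and in both HA-Bcl-xL libraries. Over all protein-coding genes, 48.2% had a peak there in at least 1 H3K4me3 library, 29.3% in at least 4 and 21.3% in all 5, against 1 of 5, 1 of 5 and 0 of 5 receptor genes. Per library the share of all genes was 40.4%, 32.4% and 28.2% in controls 1 to 3, and 38.1% and 36.5% in HA-Bcl-xL 2 and 3. SSTR1 was the 1 receptor gene called in each of these libraries other than control 3, where none of the 5 was called. No IgG library had a peak within 1 kb of any receptor gene, where 0.785% of all genes had one in at least 1 IgG library.

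The count did not depend on the width of the window. Within 2.5 kb, 53.5% of all genes had an H3K4me3 peak in at least 1 library, and within 10 kb 60.5% did, while SSTR1 was still the only receptor gene. Within 1 kb of any annotated transcript start the share of all genes was 56.6%, and the second starts of SSTR2, SSTR3 and SSTR5 had no peak either. SSTR2, SSTR3, SSTR4 and SSTR5 were thus among the 39.5% of genes with no H3K4me3 peak within 10 kb in any of the 5 libraries. A list holds only what passed the caller, here a −log10 q of about 2 or more, so a gene without a peak is not shown to lack the mark. The plot of peak summits by distance shows all 11 lists around each gene.

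**Figure D1:**
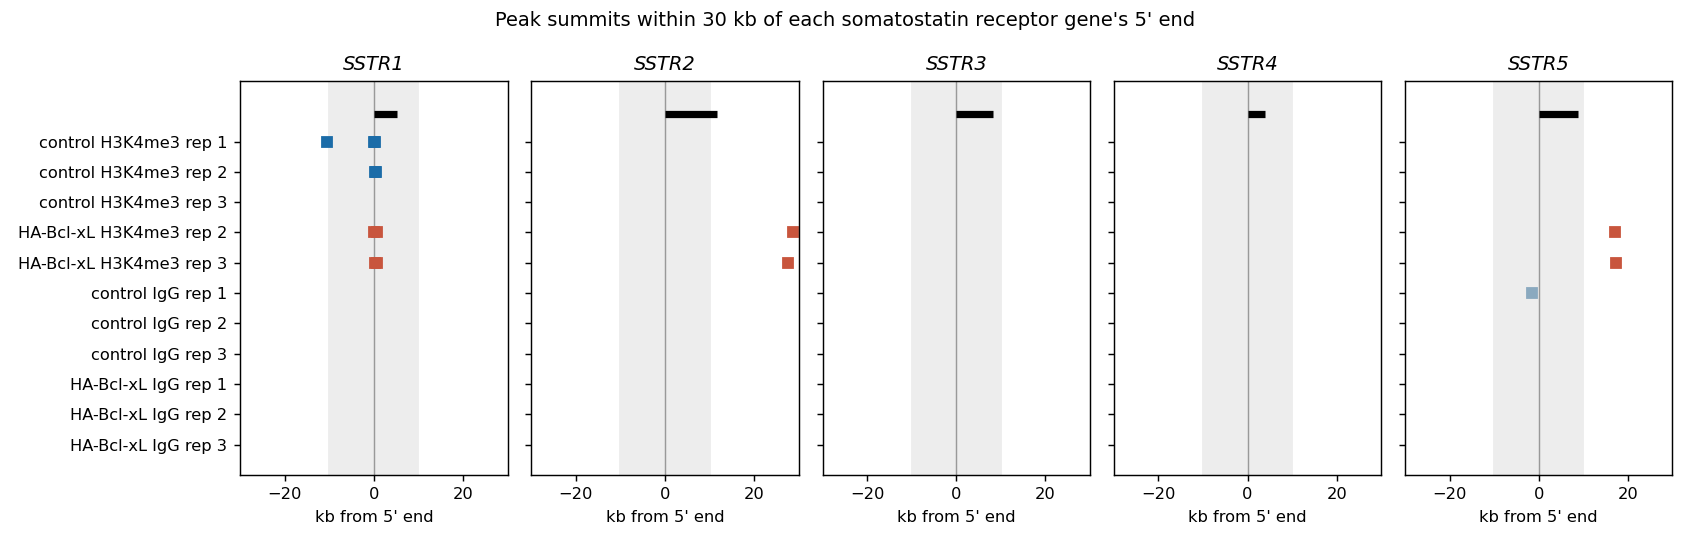
Each panel covers 30 kb on both sides of the 5′ end of 1 receptor gene, in kb in the direction of transcription, with 1 row per library. Squares are peak summits (blue, control H3K4me3; red, HA-Bcl-xL H3K4me3; pale, IgG), the black bar is the gene, and the grey band is 10 kb either side; only SSTR1 has H3K4me3 squares inside the band, in 4 of 5 libraries, and SSTR5 has 1 IgG square.

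SSTR1 encodes a receptor that binds somatostatin but has low affinity for octreotide. Its promoter had 2 peaks in each of the 4 libraries, 8 in all, 75 to 196 bp wide and with 9 to 13 fragments at the summit. The fragment number is solved from the deposited fold and p of each peak. Fold is the authors' value and ran from 3.99 to 6.82 over the 8 peaks. The caller's background under them was 0.907 to 1.51 fragments, higher than under 74.7 to 90.2% of the peaks in the same lists. In their own lists the 8 peaks ranked, by deposited −log10 p, above 1.90 to 54.5% of peaks, with a median of 32.9%. They were therefore peaks of the middle and lower part of each list, and 4 of 8 had a −log10 q of at least 5.

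In control 1 the SSTR1 peaks were chr14:38677028-38677130, with the summit at −23 bp from the 5′ end, and chr14:38677274-38677356, with the summit 223 bp after it. Both had 12 fragments at the summit and deposited −log10 q values of 5.61 and 5.63. In control 2 they were chr14:38677285-38677366, with 10 fragments at 198 bp and a −log10 q of 4.74, and chr14:38677532-38677627, with 12 fragments at 446 bp and a −log10 q of 6.77. That last peak is the intron 1 sequence printed with the promoters, and its −log10 q was the highest of the 8. Control 1 also had a peak of 3 fragments at −10397 bp, chr14:38666700-38666816, just outside the 10 kb window. Control 3 had no peak. Its nearest H3K4me3 peak lay 611.9 kb upstream, at FOXA1, a pioneer factor gene called in all 5 libraries.

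In HA-Bcl-xL 2 the SSTR1 peaks were chr14:38676952-38677114, with 11 fragments at −13 bp and a −log10 q of 4.14, and chr14:38677651-38677846, with 13 fragments at 645 bp and a −log10 q of 5.90. In HA-Bcl-xL 3 they were chr14:38677289-38677363, with 11 fragments at 237 bp and a −log10 q of 3.78, and chr14:38677712-38677796, with 9 fragments at 633 bp and a −log10 q of 2.27. The last was the weakest of the 8 and ranked above 1.90% of its list.

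Merging overlapping peaks of the 5 libraries gave 4 regions at SSTR1. The first ran from −157 to 21 bp from the 5′ end, over the start of the untranslated exon 1, and was found in 1 control and 1 HA-Bcl-xL library. The second, from 165 to 257 bp after the 5′ end, crossed the end of exon 1 (chr14:38677109-38677309) into intron 1 and was found in 2 control libraries and 1 HA-Bcl-xL library. The third, from 423 to 518 bp in intron 1, was found in control 2 alone. The fourth, from 542 to 737 bp, overlapped the untranslated exon 2 (chr14:38677648-38677814) and the start of intron 2, and was found in both HA-Bcl-xL and no control library. Among all 30435 merged H3K4me3 regions, 2.14% had that pattern and 49.5% were found in 1 library. The coding sequence, chr14:38678595-38679767 in exon 3, had no peak. With peaks within 500 bp joined, a choice made after seeing the data, the 4 regions became 1 of 895 bp with 2 libraries of each line, and no region was left in HA-Bcl-xL alone.

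**Figure D2:**
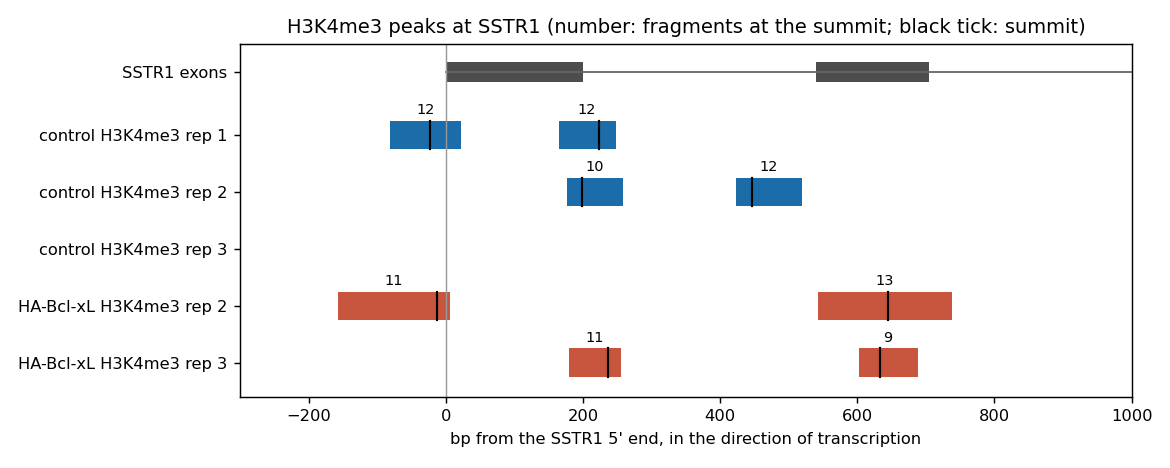
H3K4me3 peaks at SSTR1 in the 5 libraries, by bp from the 5′ end in the direction of transcription; bars are peaks, black ticks their summits, numbers the fragments at the summit, and grey boxes exons 1 and 2. Control 3 is empty, the other 4 libraries have 2 peaks each, and the bars over exon 2 are from the HA-Bcl-xL libraries.

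The bases under H3K4me3 peaks within 1 kb of the SSTR1 5′ end were 186, 178 and 0 in controls 1 to 3 and 359 and 160 in HA-Bcl-xL 2 and 3. They were 0 in all 6 IgG libraries. The other 4 libraries lay above every IgG library, and control 3 was level with IgG. The mean was 176.6 ± 127 bases (SD, n = 5) for H3K4me3 and 0 for IgG (n = 6), and the difference averaged over the lines was 190.4 bases. In a two-sided exact permutation test of the antibody labels within each line, p was 0.02. The Benjamini-Hochberg adjusted p was 0.0332 over the 9772 genes with a peak within 1 kb in any library of either antibody. Of these, 60.2% had an adjusted p under 0.05 with H3K4me3 above IgG, and 0 had IgG above. Only 0.785% of all genes had an IgG peak, so nearly all of the 9772, SSTR1 among them, entered through H3K4me3. The direction was thus largely set by this choice of genes, and the 60.2% is not a share of all genes. SSTR2, SSTR3, SSTR4 and SSTR5 had 0 bases in every library and were not tested. The SSTR1 call rests on few libraries: the adjusted p was 0.118 with only peaks of −log10 q of at least 5, and between 0.0585 and 0.111 after any 1 library other than H3K4me3 control 3 was left out. Without H3K4me3 control 3 it was 0.0187. The difference stayed at 190.4 bases without any 1 IgG library, where only the number of relabellings fell.

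Between the lines, SSTR1 had 259.5 ± 141 bases under peaks in HA-Bcl-xL (SD, n = 2) and 121.3 ± 105 in control cells (SD, n = 3). The 2 groups overlapped, since HA-Bcl-xL 3 at 160 bases lay below controls 1 and 2. The difference of 138.2 bases was within the spread of the libraries, with an exact permutation p of 0.6 (two-sided, 10 relabellings, smallest possible 0.1) and an adjusted p of 1 over 9699 genes. Its size rested on single libraries: it was 38.7 bases without HA-Bcl-xL 2, 237.7 without HA-Bcl-xL 3 and 77.5 without control 3. It was also 38.7 bases at equal list lengths and 4 with only peaks of −log10 q of at least 5. By this test 0 of 9699 genes had an adjusted p under 0.05, a threshold the design cannot reach, and 6.88% had the smallest p. None of the 5 was called in both HA-Bcl-xL and no control library, as 0.844% of all genes had, nor in all control and no HA-Bcl-xL library, as 0.248% had. A fit with limma over the 4289 genes with a peak in all 5 libraries held no receptor gene. In that fit 0 genes had an adjusted p under 0.05, and 210 had an unadjusted p under 0.05. With a replicate block 13 genes had an adjusted p under 0.05, and the labels do not say whether same-numbered libraries belong together. Leaving out control 2, HA-Bcl-xL 2 or HA-Bcl-xL 3 gave 1, 3 and 7 genes. The last pair of fits has 1 HA-Bcl-xL library, which is assumed to vary like the controls.

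SSTR1 was also set beside the other genes with a promoter peak in the same library. The median gene with a peak had 213, 165 and 144 bases in controls 1 to 3 and 186 and 177 in HA-Bcl-xL 2 and 3. SSTR1 stood at the 42.4 and 53.8 percentiles of those genes in controls 1 and 2, and at the 85.4 and 44.1 percentiles in HA-Bcl-xL 2 and 3. By the highest summit it stood between the 37.7 and the 51.2 percentile, with 11 to 13 fragments against medians of 11 to 13. SSTR1 had 2 peaks in each of 4 libraries, and 2 or more were found at 45.0%, 30.8%, 40.9% and 38.7% of the genes with a peak in the same 4 libraries. Of 5158 genes called in those 4 libraries, 869 (16.8%) lacked a peak in control 3, as SSTR1 did, which is 4.32% of all genes. Control 3 had the shortest H3K4me3 list, with 10247 peaks, and the lowest background floor, 0.0478 fragments against 0.0659 to 0.0705 in the other libraries. With every H3K4me3 list cut to its strongest 10247 peaks, SSTR1 was called in 1 control and 1 HA-Bcl-xL library, so 2 of its 4 calls were lost.

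By the highest summit within 10 kb, which was 12, 12 and 0 fragments for SSTR1 in controls 1 to 3 and 13 and 11 in HA-Bcl-xL 2 and 3, 12 genes were closest, each with a mean absolute difference of 0.6 fragments. The first 3 in alphabetical order were ARHGAP26, ASF1B and BET1L. ASF1B, a histone chaperone gene, had 11, 13, 0, 14 and 11 fragments in the same order of libraries. The measure covers 5 libraries only, and the 12 genes were tied.

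SSTR2 encodes the receptor through which octreotide mainly acts. Its nearest H3K4me3 peak lay 67.3 kb downstream in each of the 3 control libraries, at the promoter of C17orf80, with 25, 22 and 19 fragments at the summit. In HA-Bcl-xL 2 and 3 it lay 28.6 and 27.6 kb downstream, at chr17:71189764-71189895 with 9 fragments and at chr17:71188767-71188854 with 6. Both lay within 1 kb of the 5′ end of COG1, which encodes a Golgi tethering subunit, but they did not overlap. COG1 was called in 2 of 2 HA-Bcl-xL libraries and 0 of 3 controls, 1 of the 0.844% of genes with that pattern. C17orf80 was called in all 5 libraries, and SLC39A11, the nearest gene upstream, in 1 library of each line. In all, 3 of 5 genes within 100 kb of SSTR2 were called in at least 1 library, near the 48.2% of all genes, and 1 of 5 in all libraries, near the 21.3%.

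SSTR5 encodes the other receptor bound by octreotide and lanreotide. It was the only receptor gene with an IgG peak within 10 kb, chr16:1121273-1121378 in control IgG replicate 1. The summit had 3 fragments, lay at −1421 bp from the 5′ end and had a −log10 q of 2.35, where 0.492% of all genes had a peak within 2.5 kb in that library. The nearest H3K4me3 peaks lay 17.2 kb downstream in both HA-Bcl-xL libraries, at chr16:1139940-1140119 with 6 fragments and chr16:1139940-1140017 with 8, inside the gene C1QTNF8. In the control libraries the nearest was 47.3, 50.8 and 237.7 kb away. The region in C1QTNF8 was found in both HA-Bcl-xL and no control library, as 2.14% of all 30435 merged H3K4me3 regions were. The control 1 peak, chr16:1075384-1075471, overlapped a peak of control IgG replicate 3, chr16:1075323-1075445. None of the 4 genes with a 5′ end within 100 kb of SSTR5 had an H3K4me3 peak at its promoter, where 51.8% of all genes had none in any library. An antisense gene, SSTR5-AS1, overlaps the locus, and the mark carries no strand.

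Apart from SSTR1 in control 3, SSTR3 and SSTR4 were the receptor genes farthest from a call in each library. SSTR3 encodes a receptor found on primary cilia, and its nearest H3K4me3 peak was 160.2 to 397.1 kb away over the 5 libraries. Its 4 neighbours within 100 kb, CYTH4, RAC2, C1QTNF6 and IL2RB, had no promoter peak in any library, like 51.8% of all genes. SSTR4, a gene with 1 transcript, had its nearest peak 233.1 to 315.3 kb downstream, at or before NXT1. Its neighbours THBD and CD93 had none, nor did FOXA2, the nearest gene upstream at 449.9 kb. The share of all genes with a nearer peak in the same library was 79.7 to 94.3% for SSTR3, 85.3 to 92.4% for SSTR4, 57.2 to 72.4% for SSTR2 and 51.9 to 83.0% for SSTR5.

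**Figure D3:**
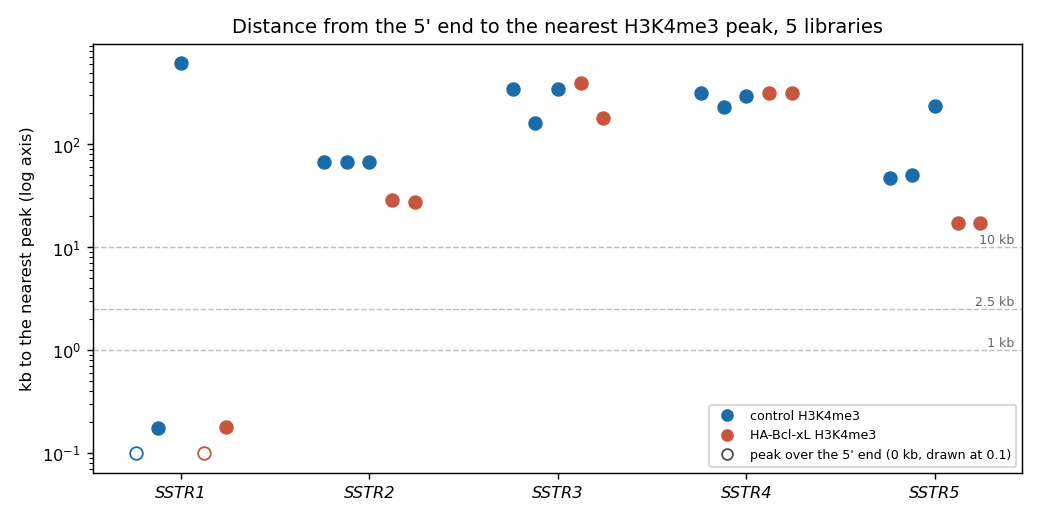
Distance in kb, on a log axis, from each receptor gene's 5′ end to the nearest H3K4me3 peak in the 3 control (blue) and 2 HA-Bcl-xL (red) libraries; open points are peaks over the 5′ end. SSTR1 lies under 1 kb in 4 libraries and at 611.9 kb in control 3, while SSTR2 to SSTR5 lie above 10 kb in all 5.

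The presence of peaks did not follow the order of CpG content among the 5 genes. Within 1 kb of the 5′ end, SSTR1 had the lowest GC content, 48.1%, against 58.6% at SSTR3, 60.7% at SSTR2, 66.2% at SSTR4 and 68.6% at SSTR5. The ratio of observed to expected CpG was 0.298 at SSTR3, 0.484 at SSTR5, 0.545 at SSTR1, 0.634 at SSTR2 and 0.708 at SSTR4. In the decile of all genes that holds SSTR1 by this ratio, 63.4% had a peak in at least 1 library. The shares were 69.9% in the decile of SSTR2 and 73.8% in that of SSTR4, against 41.9% for SSTR5 and 10.8% for SSTR3. By GC content the shares were closer together, 49.9% in the decile of SSTR1, 60.4% in that of SSTR3, 59.98% in that of SSTR2 and 47.1% in the one that holds SSTR4 and SSTR5. SSTR2 was without a call in a decile where most genes had one by either measure. For SSTR3 and SSTR4 the measures differed: most genes of the SSTR4 decile had a peak by CpG ratio but not by GC content, and the reverse held for SSTR3. These are values of 5 genes, with no test.

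**Figure D4:**
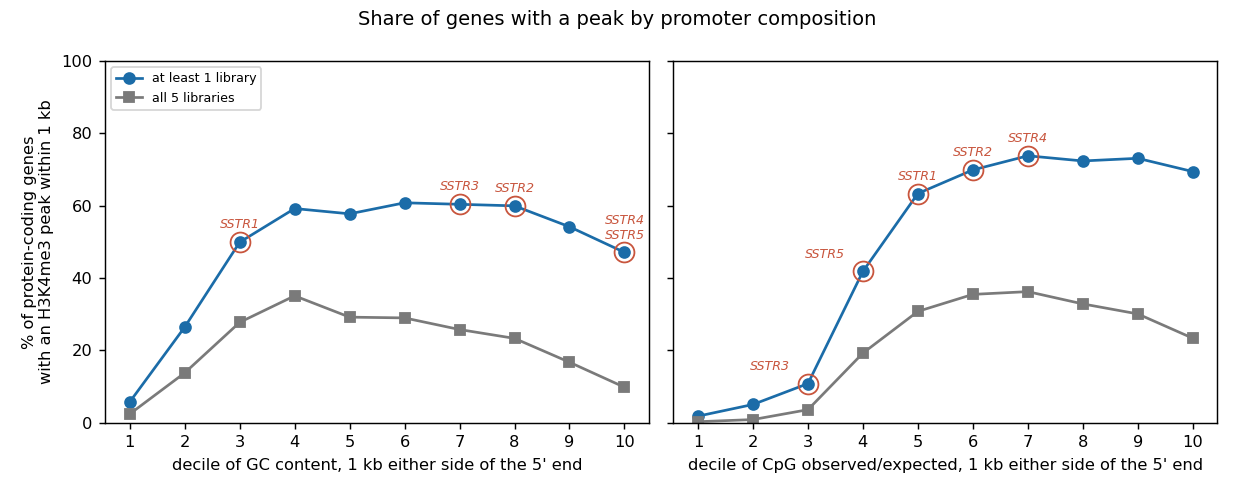
Percent of protein-coding genes with a promoter H3K4me3 peak (5′ end ± 1 kb), by decile of GC content (left) and of the observed to expected CpG ratio (right); circles, at least 1 library, and squares, all 5. Red rings mark the decile of each receptor gene, with SSTR1 at 63.4% and SSTR4 at 73.8% on the right.

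Short motifs were searched on both strands of the 280 bases, in all 20136 genes. GGGCGG, the core of the GC box, was present at SSTR2, SSTR3, SSTR4 and SSTR5 and not at SSTR1, and 51.0% of all promoters held it. TGACGT, part of the cyclic AMP response element, was present at SSTR2 alone among the receptors and in 8.62% of promoters. CCAAT was present at SSTR4 alone and in 34.9%, and TATAAA at none and in 10.6%. A match is a description of these letters only, and GGGCGG and TGACGT each hold a CpG.

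The genes around the receptors in the pathway were taken from 9 lists with 82 genes. A promoter peak in at least 1 H3K4me3 library was found at 22 of the 82 (26.8%, where all genes gave 48.2%), and in all 5 libraries at 3 (3.66%, where all genes gave 21.3%). No list gene had an IgG peak, and none was called in all libraries of one line and none of the other. Of the ligand and processing genes 1 of 6 had a peak, PCSK1, a prohormone convertase, in 2 control libraries and 1 HA-Bcl-xL library. SST and CORT, which encode somatostatin and cortistatin, had none. Of the inhibitory G protein subunits 3 of 16 had one, and GNAI3, an inhibitory alpha subunit, had 27, 22 and 21 fragments at the summit in controls 1 to 3 and 24 and 15 in HA-Bcl-xL 2 and 3. GNAI3 was thus called in every H3K4me3 library, whereas GNAI1, GNAI2, GNAO1 and GNAZ were not called in any. All calls and shares of the pathway lists are for the most 5′ annotated end alone. Calls of single list genes at other transcript starts are not given here, so a gene without a call may have a peak at another start.

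Adenylyl cyclases, the enzymes that somatostatin receptors inhibit, had a peak at 3 of 9, each in 1 library. Receptor kinases and arrestins had one at 5 of 7, but only 1 of the 7 was called in all 5 libraries. Of all genes 48.2% had a peak in at least 1 library and 21.3% in all 5, and lists this short say little beside these shares. The gene called in all 5 was GRK5, a kinase that phosphorylates active receptors. It had 31, 21 and 19 fragments in controls 1 to 3 and 31 and 28 in HA-Bcl-xL 2 and 3. The phosphatases had 2 of 3, with PTPN11 at 0, and the PDZ partners, scaffolds that bind receptor tails, 2 of 8. The G protein-gated potassium channels had 0 of 4. Of 13 close relatives of the receptors, opioid, galanin and similar receptor genes, 2 had a peak: OPRD1 in both HA-Bcl-xL libraries and 1 control, and GALR1 in HA-Bcl-xL 2. Of 16 other receptors and imaging targets used in neuroendocrine tumors, 4 had one. GIPR, the incretin receptor gene, was the only gene of this list called in all 5 libraries, with 7, 6 and 8 fragments in controls 1 to 3 and 7 and 9 in HA-Bcl-xL 2 and 3, which is low beside GNAI3 and GRK5. GLP1R, another receptor used for imaging, had none.

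By library, 11, 6 and 11 of the 82 pathway genes were called in controls 1 to 3 and 12 and 8 in HA-Bcl-xL 2 and 3. The means were 9.33 ± 2.89 (SD, n = 3) and 10 ± 2.83 (SD, n = 2). The difference of 0.667 genes was smaller than the pooled SD of 2.87, and neither its sign nor its size was stable. It was 4.67 within 1 kb of any transcript start, above that SD, and 2.5 within 2.5 kb. It was −0.833 with a −log10 q of at least 5 and −1.67 at equal list lengths. Leaving out 1 library gave −1.33 (HA-Bcl-xL 2) to 2.67 (HA-Bcl-xL 3), and −1 without control 2.

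**Figure D5:**
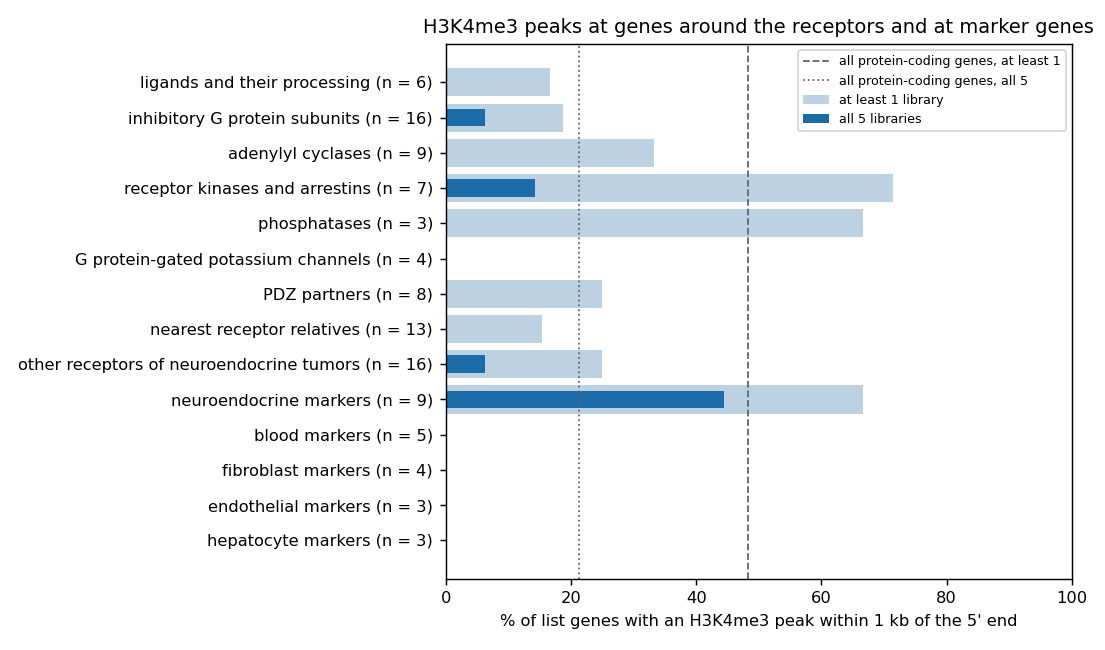
Percent of the genes in each pathway or marker list with a promoter H3K4me3 peak (5′ end ± 1 kb), in at least 1 library (pale bars) or all 5 (dark bars); n is the number of matched genes. The vertical lines are all protein-coding genes, 48.2% (dashed) and 21.3% (dotted); the potassium channel and non-endocrine marker lists are at 0.

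The label of the cells was checked on marker genes. Of 9 neuroendocrine markers 6 had a promoter peak, and CHGB, NEUROD1, SCG2 and SCG3 had one in all 5 libraries, beside 48.2% and 21.3% of all genes. CHGA was called in control 1 alone, and INSM1, ENO2 and UCHL1 in no library. Markers of blood (0 of 5), fibroblasts (0 of 4), endothelium (0 of 3 matched) and hepatocytes (0 of 3) had no peak, as 51.8% of all genes had none in any library, so lists this short say little. The H3K4me3 lists held 10247 to 17711 peaks, whose summits had a median of 9 to 12 fragments, and the IgG lists 244 to 2113. The IgG lists differed by line, with 1674 to 2113 peaks and a background floor of 0.0333 to 0.0433 fragments in control cells and 244 to 268 peaks and a floor of 0.0706 to 0.0897 in HA-Bcl-xL. The part of this difference in the IgG comparison at SSTR1 was not tested, and SSTR1 had no IgG peak in either line.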

How the data were processed

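CUT&RUN peak lists were used as deposited, 1 for each library, with no pooling of replicates. The submitters' processing notes name bcl2fastq 2.20, Trimmomatic 0.36, Bowtie2 2.2.9, MACS2 2.1.1, deepTools 3.5.1 and the build hg19 (GRCh37), without roles. Filters and the treatment of duplicates are not given in the sources used here. For each peak the authors deposited positions, a score, a fold enrichment (a ratio), a −log10 p and a −log10 q. These values describe or rank a peak within its own list.

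Fold and −log10 p were solved for a whole number of fragments at the summit and a background, taking fold as (n + 1) / (background + 1) and p as a Poisson tail. A number within 0.001 in −log10 p was found for 99.94 to 99.97% of peaks per H3K4me3 list and 95.9 to 99.9% per IgG list. On 1920 simulated peaks it was right for 100.0%. The lowest backgrounds (0.1 percentile) gave each list's floor, a relative depth. Counts cover counting error only, since PCR copies are not independent molecules.

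Genes came from GENCODE release 44 lifted to GRCh37. Coordinates are 1-based. A call is at least 1 bp of a peak within 1 kb of the most 5′ end. Bases under peaks were compared by two-sided exact permutation tests, antibody labels within lines (200 relabellings) and line labels (10 relabellings). The smallest p of the latter, by counting differences at least as large in size, is 0.1; a value of 0.2 had been assumed when the test was planned. For genes with peaks in all libraries, log2 of the bases under peaks, computed from the deposited positions and centred per library on the median, was fitted by limma 3.58.1 (R 4.3.3). Adjusted p-values are Benjamini-Hochberg, over all genes tested. Python 3.11.15, numpy 2.4.6, pandas 2.3.3, scipy 1.17.1 and matplotlib 3.10.9 were used.

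The receptor genes, pathway and marker lists, tests and alternatives were chosen with earlier results of these data known. The naming rule took all 5 receptors, their nearest genes and peaks, from each list the genes in all libraries (up to 3, by mean summit fragments), in 1 line only or in IgG, and the 3 genes most like SSTR1. Other list genes were named after their values were seen. Alternatives were other windows, any transcript start, equal list lengths, peaks with a −log10 q of 5 or more, removal of peaks overlapping IgG, dropping each library in turn, and a replicate block. PECAM1 was not matched, and 1 further marker gene is not reported here.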

Additional observations from a re-analysis of the deposited data

How the results depend on the processing

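The count of 1 receptor gene with an H3K4me3 peak was the same in all 11 alternatives run. Its SSTR1 peaks fell from 4 libraries to 3 (2 control and 1 HA-Bcl-xL) with a −log10 q of at least 5, and to 1 of each line with equal list lengths of 10247 peaks. The count of receptor genes with H3K4me3 above IgG went from 1 to 0 with a −log10 q of at least 5, where the SSTR1 difference was 96 bases (exact permutation p 0.08, adjusted 0.118). With a replicate block it was also 0, and the SSTR1 difference was 176.6 bases (exact p 0.125, adjusted 0.207). That p is the smallest the 4 pairs that differed allow, so the blocked count could not be other than 0. Leaving out 1 library at a time gave counts of 0 to 1 and SSTR1 differences of 140.7 to 240.2 bases, with adjusted p from 0.0187 to 0.111. The count was 0 without any 1 of the 6 IgG libraries, control H3K4me3 replicates 1 or 2, or HA-Bcl-xL H3K4me3 replicates 2 or 3. Fewer libraries also leave fewer relabellings. The SSTR1 difference of HA-Bcl-xL from control ran from 4 to 237.7 bases over 12 alternatives (38.7 to 237.7 with 1 library left out), with an adjusted p of 1 in each, and with so few libraries none could pass the threshold.

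The pathway difference of 0.667 genes was 4.67 with any transcript start, −0.833 with a −log10 q of at least 5, and −1.67 with equal list lengths. Leaving out 1 library gave −1.33 to 2.67, with −1 without control replicate 2 and −1.33 without HA-Bcl-xL replicate 2; the cause was not tested. The limma count of 0 was 13 with the replicate block, and 0 to 7 with 1 library left out (1 without control replicate 2, 3 without HA-Bcl-xL replicate 2, 7 without HA-Bcl-xL replicate 3). Without either HA-Bcl-xL library the remaining one is assumed to vary like the controls, which alone give the spread. Deviations of same-numbered libraries correlated by −0.0105 to 0.0253 across genes. Most of these pairs set H3K4me3 against IgG, and no IgG library had a promoter peak at more than 0.253% of genes. The correlations therefore cannot show whether same-numbered libraries share a batch, and the labels do not say. The 1 SSTR1 region in both HA-Bcl-xL and no control library became 0 with peaks within 500 bp joined, which was chosen after seeing the data.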
